A study of Homo sapiens with 9 samples.

Results

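The zinc finger genes of band 19p12 on human chromosome 19 were examined in MATR3-knockout and wild-type HAP1 cells. HAP1 is a near-haploid line derived from the chronic myeloid leukaemia line KBM-7, and MATR3 encodes matrin 3, a nuclear protein that binds RNA and DNA. The 33 genes are listed KRAB zinc finger genes of this band, and the cluster was chosen by its knockout against wild-type values in these same libraries, so that contrast is described here and not tested. Of the 33, 26 had a row among the 21003 genes counted. ZNF85, ZNF93, ZNF98, ZNF99, ZNF430, ZNF626 and ZNF714 were not analysed here. In GENCODE the 33 genes lie between positions 19785839 and 24129968 of chromosome 19 (hg38), all on the short arm.

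Total RNA depleted of ribosomal RNA was sequenced from 9 libraries of untreated cells in the same growth medium. The MATR3 knockout (KO) groups were KO clone 1 (n = 2) and KO clone 5 (n = 2), and the wild-type (WT) groups were WT clone 1 (n = 3) and WT clone 7 (n = 2). Per the labels, both KO lines were bought as single clones and the WT lines are 2 supplier batches of 1 catalogue line, which the labels call clone 1 and clone 7. The labels do not say whether replicates were grown separately, and the p-values therefore rest on a spread that may be technical. With 2 such lines of each genotype, a difference that arose in a line and an effect of MATR3 loss cannot be told apart for a single gene.

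KRAB zinc finger proteins are DNA-binding repressors of vertebrates. An array of C2H2 zinc fingers reads the DNA, and the KRAB box recruits the corepressor TRIM28, which brings the H3K9 methyltransferase SETDB1 and heterochromatin protein 1. Many of them bind transposable elements, and the genes lie in clusters that grew by tandem duplication, of which the one at 19p12 expanded in primates. Of its members, ZNF91 is known to repress SVA elements in human cells and ZNF676 to bind LTR12 repeats. No binding was measured in this series.

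The promoters of these tandem duplicates are alike, and 4 of them are printed so that their shared sequence can be seen, 2 from each of the sets of genes described below. RefSeq promoter entries (GRCh38.p14) existed for 21 of the 26 members, as 22 windows of 250 bases before a RefSeq start of the gene. In pairwise global alignments the windows were 75.7% identical at the median of 230 pairs, with a range of 46.9 to 89.4%. The ZNF208 window (chr19:22010944-22011193 on the minus strand) and the ZNF43 window (chr19:21836183-21836432 on the minus strand) belong to genes that were at or near 0 in KO libraries. The ZNF91 window (chr19:23395472-23395721 on the minus strand) and the ZNF431 window (chr19:21141790-21142039 on the plus strand) belong to genes that KO and WT libraries held at overlapping levels. The RefSeq start of ZNF43 lies inside its longer GENCODE span. A window of each of ZNF682, ZNF429, ZNF730 and ZNF254 also lies inside the GENCODE span of its gene. Sequences are given 5′ to 3′ on the strand of the gene, and capitals mark CCAATCAG, which contains the CCAAT box.
ZNF208: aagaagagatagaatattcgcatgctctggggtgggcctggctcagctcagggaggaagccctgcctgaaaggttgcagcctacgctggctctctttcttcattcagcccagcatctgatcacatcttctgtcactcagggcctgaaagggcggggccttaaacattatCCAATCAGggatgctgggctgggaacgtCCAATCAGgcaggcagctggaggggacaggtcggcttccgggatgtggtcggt
ZNF43: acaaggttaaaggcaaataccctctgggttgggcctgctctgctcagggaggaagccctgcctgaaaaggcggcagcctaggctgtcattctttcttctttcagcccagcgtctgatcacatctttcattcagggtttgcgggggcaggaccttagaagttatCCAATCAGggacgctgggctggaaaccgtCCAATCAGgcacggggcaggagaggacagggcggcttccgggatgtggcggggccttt
ZNF91: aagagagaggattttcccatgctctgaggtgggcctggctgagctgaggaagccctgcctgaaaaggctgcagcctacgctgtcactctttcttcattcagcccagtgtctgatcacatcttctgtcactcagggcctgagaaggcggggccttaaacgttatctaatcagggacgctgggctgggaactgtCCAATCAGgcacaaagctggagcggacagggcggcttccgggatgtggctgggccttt
ZNF431: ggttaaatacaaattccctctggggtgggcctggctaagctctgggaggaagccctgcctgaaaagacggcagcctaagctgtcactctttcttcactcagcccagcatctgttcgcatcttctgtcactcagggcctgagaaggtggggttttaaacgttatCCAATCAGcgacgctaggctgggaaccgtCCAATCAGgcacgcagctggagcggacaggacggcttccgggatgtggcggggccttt

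Among the genes below 1 CPM in every KO library the median identity was 79.8% (28 pairs), between these and the other members 76.2% (112 pairs), and among the other members 65.0% (90 pairs). The last includes ZNF682, whose windows were 46.9 to 68.6% identical to those of other genes. It also includes ZNF708, ZNF429 and ZNF675, whose windows were less alike to most. Pairs among the other members reached 84.7% (ZNF91 and ZNF726). Of the printed windows, ZNF208 and ZNF91 were 86.4% identical, the highest of those 112 pairs, ZNF431 and ZNF43 82.7%, and ZNF43 and ZNF208 78.5%. CCAATCAG, searched on both strands, was in 21 of the 22 windows, against 3.81% of 35116 promoter windows of the same length. The genes below 1 CPM in KO libraries had a median of 2 copies (8 windows) and the other members of 1 copy (14 windows). The windows held 3 to 13 CG dinucleotides with a median of 8, and the median over all promoters was 11. These are descriptions of the windows with no test, and whether sequence goes with the KO level was not tested.

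Before the members, 2 checks of the libraries were made. MATR3 RNA averaged 44.4 ± 3.58 CPM (counts per 1000000 counts) in KO libraries (SD, n = 4) and 219 ± 5.90 CPM in WT libraries (SD, n = 5), so transcript remained in the KO clones. Of 8 haematopoietic markers, TAL1 averaged 43.2 CPM in KO and 38.6 CPM in WT libraries and KIT averaged 1.15 CPM in KO and 8.48 CPM in WT libraries, and the other 6 were not analysed here. Each library held between 16.1e6 and 34.4e6 counts. WT clone 1 replicate 1 differed from the rest, with 14.0% of its counts in repeats, against 8.97 to 11.2% in KO libraries and 7.90 to 10.5% in the other WT libraries. The main results are therefore also given without it.

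The cluster divided into 11 genes that were below 1 CPM in every KO library and 15 that were clearly present in all of them. The 11 were ZNF253, ZNF90, ZNF486, ZNF737 and ZNF66 at the side nearer the telomere, then ZNF43, ZNF208, ZNF257, ZNF676 and ZNF729, and ZNF730. Summed over the 11, KO clone 1 held 0.987 and 1.44 CPM and KO clone 5 held 1.61 and 0.873 CPM, against 108, 30.6 and 32.8 CPM in WT clone 1 and 7.30 and 5.96 CPM in WT clone 7. KO and WT libraries did not overlap in this sum. Summed over the other 15, KO libraries held 194 to 219 CPM, against 245 to 314 CPM in WT libraries. The division at 1 CPM was made after the values were seen and is a description. The highest KO value of any of the 11 was 0.837 CPM (ZNF730), and the lowest KO value among the 15 was 2.62 CPM (ZNF429). In bulk RNA, fewer cells that express a gene and less of its RNA in each cell cannot be told apart.

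**Figure D1:**
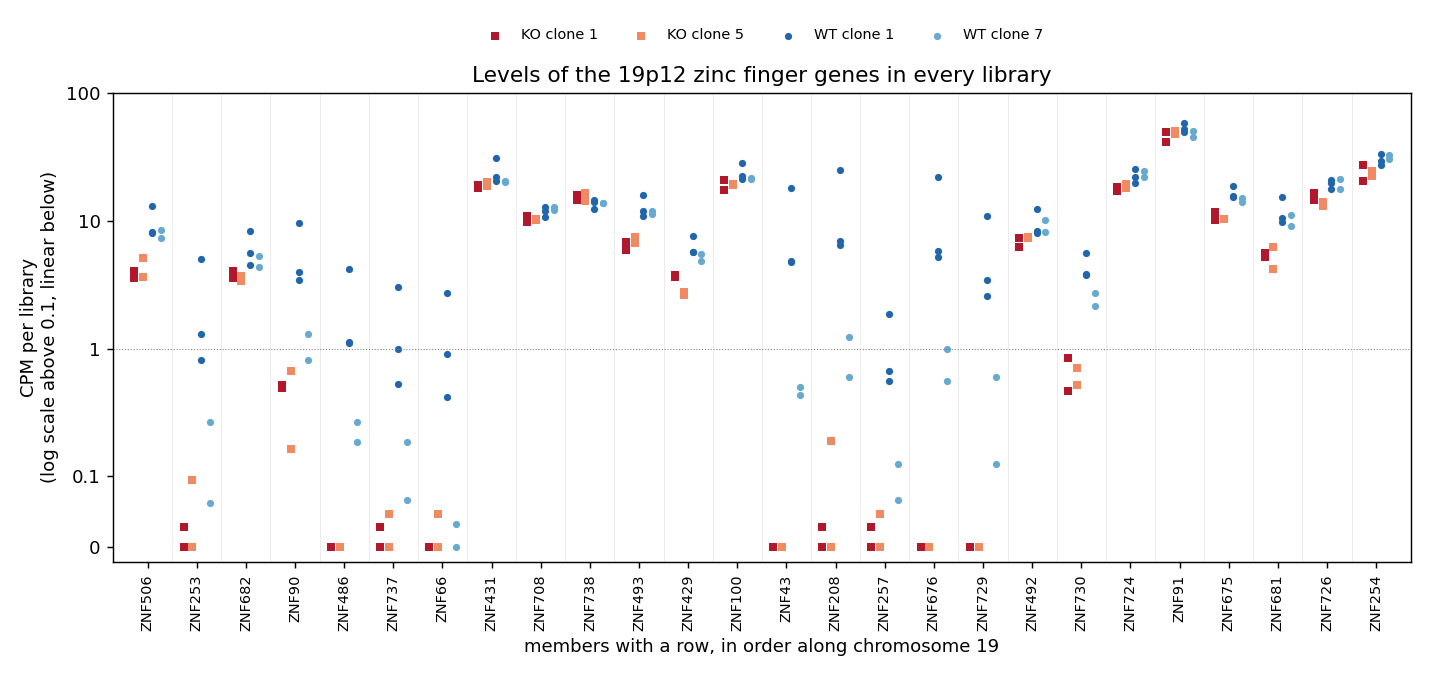
CPM of each of the 26 members (x axis, in their order along chromosome 19) in each of the 9 libraries (y axis, log scale above 0.1 and linear below), with KO libraries as squares and WT libraries as circles. Of the members, 11 lie under the dotted line at 1 CPM in all 4 KO libraries, and in each of these the 3 WT clone 1 points are above both WT clone 7 points.

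The 4 genes ZNF486, ZNF43, ZNF676 and ZNF729 had 0 counts in all 4 KO libraries. Over all genes of the table, 0.276% had 0 counts in all KO libraries. ZNF676 had 0 counts in each KO library, against 22.0, 5.21 and 5.82 CPM in WT clone 1 and 0.992 and 0.558 CPM in WT clone 7. ZNF43 had 0 counts in each KO library, against 18.1, 4.73 and 4.85 CPM in WT clone 1 and 0.430 and 0.496 CPM in WT clone 7. In both genes every WT library held more than every KO library, and WT clone 1 replicate 1 was far above the rest.

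ZNF729 had 0 counts in each KO library, against 10.8, 2.58 and 3.46 CPM in WT clone 1 and 0.595 and 0.124 CPM in WT clone 7. ZNF486, which did not pass the filter on low counts, had 0 counts in each KO library, against 4.19, 1.10 and 1.12 CPM in WT clone 1 and 0.264 and 0.186 CPM in WT clone 7. The order of the clones was the same in both, with WT clone 1 highest and the KO libraries at 0. Taking 3 counts over the 4 KO libraries together as the most that a count of 0 allows, the WT mean puts ZNF676 at least 210-fold lower in KO cells, ZNF43 at least 174-fold, ZNF729 at least 107-fold and ZNF486 at least 41.8-fold. Against WT clone 7 alone ZNF676 is at least 23.6-fold lower, ZNF43 14.1-fold, ZNF729 10.9-fold and ZNF486 6.86-fold, so the size of the bound depends on the WT clone. With WT clone 1 replicate 1 left out, the bounds against the 4 remaining WT libraries are 95.8-fold (ZNF676), 79.9-fold (ZNF43), 51.4-fold (ZNF729) and 20.3-fold (ZNF486). These bounds cover counting error only.

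ZNF208, the neighbour of ZNF43 and a gene known from genetic studies of telomere length, held 0 and 0.0288 CPM in KO clone 1 and 0.190 and 0 CPM in KO clone 5, against 25.0, 6.89 and 6.44 CPM in WT clone 1 and 0.595 and 1.24 CPM in WT clone 7. That is 5 counts in all KO libraries together, and the groups did not overlap (log2 difference -7.03, SE 1.42). ZNF90 held 0.523 and 0.490 CPM in KO clone 1 and 0.664 and 0.164 CPM in KO clone 5, against 9.68, 3.44 and 3.96 CPM in WT clone 1 and 1.29 and 0.807 CPM in WT clone 7 (log2 difference -3.00, SE 0.69). Its lowest WT library lay just above its highest KO library. Without WT clone 1 replicate 1 the log2 difference was -6.00 for ZNF208 and -2.36 for ZNF90, and without WT clone 1 altogether -3.86 and -1.21. For ZNF208, without KO clone 5 replicate 1, which held 4 of the 5 counts, it was -8.66.

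The remaining 5 of the 11 were lower still in counts or smaller in difference. ZNF253, ZNF737, ZNF257 and ZNF66 had 3, 2, 2 and 1 counts over the 4 KO libraries, against 142, 94, 63 and 77 counts in WT clone 1 and 9, 5, 4 and 1 counts in WT clone 7. At such counts these 4 genes, like ZNF486, did not pass the filter and were not tested, and KO and WT clone 7 were not clearly apart in ZNF253 and ZNF66, where their libraries overlapped. ZNF730 held 0.464 and 0.837 CPM in KO clone 1 and 0.522 and 0.709 CPM in KO clone 5, against 5.55, 3.73 and 3.84 CPM in WT clone 1 and 2.71 and 2.17 CPM in WT clone 7 (log2 difference -2.45, SE 0.30). It was the member of the 11 in which WT clone 7 came nearest to WT clone 1, and without WT clone 1 replicate 1 its log2 difference was -2.26.

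**Figure D2:**
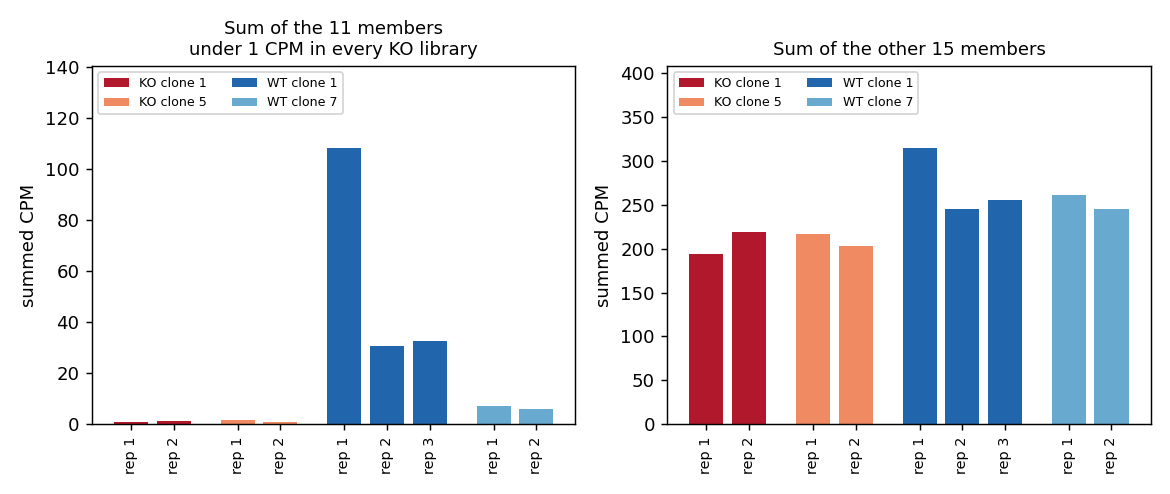
Summed CPM per library (y axis, from 0) of the 11 members under 1 CPM in every KO library (left) and of the other 15 (right), with the 2 KO clones left of the 2 WT clones. The left sums are 0.873 to 1.61 CPM in KO libraries, 30.6 to 108 CPM in WT clone 1 and 5.96 to 7.30 CPM in WT clone 7.

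Along the chromosome 9 of the 11 genes lie in 2 stretches, which is a description with no test. ZNF43, ZNF208, ZNF257, ZNF676 and ZNF729 are consecutive among the members with a row, and span positions 21804946 to 22317176. ZNF90, ZNF486, ZNF737 and ZNF66 are also consecutive, from 20077994 to 20809995, and ZNF253 is separated from them by ZNF682, which was present in KO cells. Between the 2 stretches lie ZNF431, ZNF708, ZNF738, ZNF493, ZNF429 and ZNF100, all present in KO cells, and ZNF85, ZNF430 and ZNF714, which lie between ZNF66 and ZNF431, were not analysed, nor were ZNF626 before ZNF66 and ZNF93 before ZNF682. ZNF730 stands alone, from 23075210 to 23147221, between ZNF492 and ZNF724. Positions are GENCODE gene spans in hg38.

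The span also held 24 rows of other genes, mostly pseudogenes and non-coding RNAs. Of these, 14 were below 1 CPM in all KO libraries, as were 23.7% of all genes of the table, and 3 had 0 counts in all 4. Named after its values were seen, ENSG00000279377, a transcript annotated as still to be tested experimentally, inside ZNF208 on the same strand, held 0, 0, 0 and 0.0545 CPM in the KO libraries, against 13.1, 3.40 and 3.60 CPM in WT clone 1 and 0.364 and 0.124 CPM in WT clone 7. As in ZNF208, with which it shares sequence, WT clone 1 replicate 1 was highest and the KO libraries lowest. Among the 14 rows tested, 3 were called lower in KO cells by edgeR and 0 higher, and 6 had an unadjusted p below 0.05, beside 11.9% of all tested genes called lower, 11.3% higher and 35.8% at an unadjusted p below 0.05. The 3 were the non-coding RNA LINC01224 (16.1 ± 1.47 CPM in KO and 24.3 ± 1.83 CPM in WT libraries; log2 difference -0.59, SE 0.08, edgeR adjusted p = 0.00031), ENSG00000213976 (-0.96, SE 0.20, edgeR adjusted p = 0.0048) and ENSG00000267481 (-1.35, SE 0.35, edgeR adjusted p = 0.016).

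The comparison between the WT clones contains no KO library, although its WT libraries also entered the contrast by which the cluster was chosen. All 11 genes were lower in both WT clone 7 libraries than in all 3 WT clone 1 libraries, against 3 of the other 15, and the same was true of 16.5% of all genes of the table. In the 10 of the 11 with more than 3 counts in WT clone 7, the mean was 1.79-fold (ZNF730) to 20-fold (ZNF43) lower in WT clone 7. Without WT clone 1 replicate 1 this range was 1.55 to 10.3-fold, so the order of the WT clones did not rest on that library. The other 15 were 0.946 to 1.27 times as high in WT clone 1 as in WT clone 7.

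By edgeR's quasi-likelihood test with adjustment over all genes and repeats, 1 of 21 tested members was called between the WT clones, ZNF208, which was lower in WT clone 7 (log2 difference -3.87, SE 0.72, edgeR adjusted p = 0.048). Over all tested genes 0.450% were called lower, 0.163% higher and 0.613% in either direction. Without WT clone 1 replicate 1, 2.8% of all tested genes were called lower and 1.56% higher. Shares over all genes are not given for the other alternatives below. The other tested members of the 11 missed the threshold: ZNF43 (-4.30, SE 0.78, edgeR adjusted p = 0.053), ZNF90 (-2.35, SE 0.52, 0.062), ZNF676 (-3.71, SE 0.76, 0.064), ZNF729 (-3.71, SE 0.80, 0.071) and ZNF730 (-0.81, SE 0.26, 0.13). All 6 had an unadjusted p below 0.05 and were lower, as were 8.65% of all tested genes, and 0 of the other 15 members did. Of the 6, ZNF43, ZNF208, ZNF676 and ZNF729 passed the filter on low counts through WT libraries alone, with WT clone 1 highest. The 6 were also grouped by their low KO values, so setting them beside the other 15 is a description. Replicate 3 occurred only in WT clone 1, so a block by replicate number fitted that library alone and left it out of this difference. With such a block 5 members passed edgeR, at adjusted p = 0.00053 (ZNF676), 0.0007 (ZNF729), 0.0015 (ZNF43), 0.0024 (ZNF208) and 0.0034 (ZNF90), and DESeq2 without a block called 4. The count was 3 without WT clone 1 replicate 1 or replicate 2, and 0 without WT clone 1 replicate 3, either WT clone 7 library or any of the KO libraries. ZNF208 lost its call in 9 of 18 alternatives, with adjusted p from 0.0024 to 0.31.

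Within WT clone 1, replicate 1 was highest at 23 of the 26 members among all 9 libraries, as it was at 17.3% of all genes of the table. Across the 11 it held 1.47 to 4.73 times the mean of replicates 2 and 3, with a median of 3.77. Across the other 15 it held 1.03 to 1.63 times that mean. Its repeat share was also the highest, and the part this plays in the members' values was not tested. Between the KO clones 0 of 21 tested members were called by edgeR, 1 had an unadjusted p below 0.05, and DESeq2 called 0, beside 0.692% of all tested genes called by edgeR, 0.225% lower and 0.467% higher. The smallest adjusted p was 0.50 (edgeR, ZNF429). ZNF43, ZNF676 and ZNF729 had 0 counts in all KO libraries and could not be called between the KO clones. ZNF208 rested on 5 KO counts there (log2 difference 2.11, SE 2.97).

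In the 15 genes present in KO cells the genotypes were closer. Their log2 differences, KO against WT, ran from -1.13 to 0.16, with 14 below 0. ZNF91, the SVA repressor, held 41.6 and 49.4 CPM in KO clone 1 and 50.4 and 47.8 CPM in KO clone 5, against 58.0, 49.9 and 52 CPM in WT clone 1 and 50 and 45.4 CPM in WT clone 7 (log2 difference -0.11, SE 0.08). The genotypes overlapped. ZNF738, the one member above 0, held 14.4 and 15.8 CPM in KO clone 1 and 16.6 and 14.2 CPM in KO clone 5, against 13.9, 14.4 and 12.4 CPM in WT clone 1 and 13.7 and 13.8 CPM in WT clone 7 (0.16, SE 0.08).

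ZNF431, whose promoter window is shown above, held 18.1 and 19 CPM in KO clone 1 and 20.2 and 18.7 CPM in KO clone 5, against 30.7, 21.8 and 20.6 CPM in WT clone 1 and 20.5 and 20 CPM in WT clone 7 (-0.25, SE 0.12). ZNF100 held 17.4 and 20.8 CPM in KO clone 1 and 19.3 and 18.9 CPM in KO clone 5, against 28.4, 21.3 and 22.2 CPM in WT clone 1 and 21.5 and 21.2 CPM in WT clone 7 (-0.26, SE 0.10). The genotypes overlapped in ZNF431, and in ZNF100 every KO library lay below every WT library. Without WT clone 1 replicate 1, the highest library of both genes, the log2 difference was -0.12 for ZNF431 and -0.17 for ZNF100.

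Somewhat larger log2 differences, from -0.31 to -0.55, were seen in ZNF675, ZNF726, ZNF254 and ZNF724. ZNF675, also called TIZ for its inhibition of the signalling adaptor TRAF6, held 10.1 and 11.8 CPM in KO clone 1 and 10.4 and 10.3 CPM in KO clone 5, against 18.6, 15.4 and 15.7 CPM in WT clone 1 and 13.9 and 15 CPM in WT clone 7 (-0.55, SE 0.10). ZNF726 held 16.6 and 14.4 CPM in KO clone 1 and 13.1 and 14.1 CPM in KO clone 5, against 20.9, 17.8 and 19.7 CPM in WT clone 1 and 21.1 and 17.8 CPM in WT clone 7 (-0.42, SE 0.09). In both genes every KO library lay below every WT library. ZNF254 held 20.5 and 27.1 CPM in KO clone 1 and 24.7 and 22.3 CPM in KO clone 5, against 33.1, 27.2 and 29.1 CPM in WT clone 1 and 32.5 and 30.5 CPM in WT clone 7 (-0.36, SE 0.09). ZNF724 held 17.2 and 18.3 CPM in KO clone 1 and 19.4 and 18.0 CPM in KO clone 5, against 25.2, 19.6 and 21.9 CPM in WT clone 1 and 24.6 and 21.8 CPM in WT clone 7 (-0.31, SE 0.08). In these genes the highest KO and the lowest WT library were within a small step of each other.

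The largest differences among the 15 were in ZNF506 (4.08 ± 0.721 CPM in KO and 9.01 ± 2.27 CPM in WT libraries, log2 difference -1.13, SE 0.18), ZNF681 (5.31 ± 0.858 CPM in KO and 11.2 ± 2.36 CPM in WT libraries, -1.06, SE 0.16), ZNF493 (6.71 ± 0.649 CPM in KO and 12.4 ± 2.12 CPM in WT libraries, -0.87, SE 0.13) and ZNF429 (3.20 ± 0.602 CPM in KO and 5.90 ± 1.05 CPM in WT libraries, -0.87, SE 0.17). These 4 were named after their values were seen. ZNF506 was at -0.97 and ZNF493 at -0.77 without WT clone 1 replicate 1. ZNF682, ZNF492 and ZNF708 were at -0.60, -0.40 and -0.22. In all, the genotypes were fully apart at 20 of the 26 members, 9 of the 11 and 11 of the 15, with KO lower in each, while 10.9% of all genes of the table had every KO library below every WT library.

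**Figure D3:**
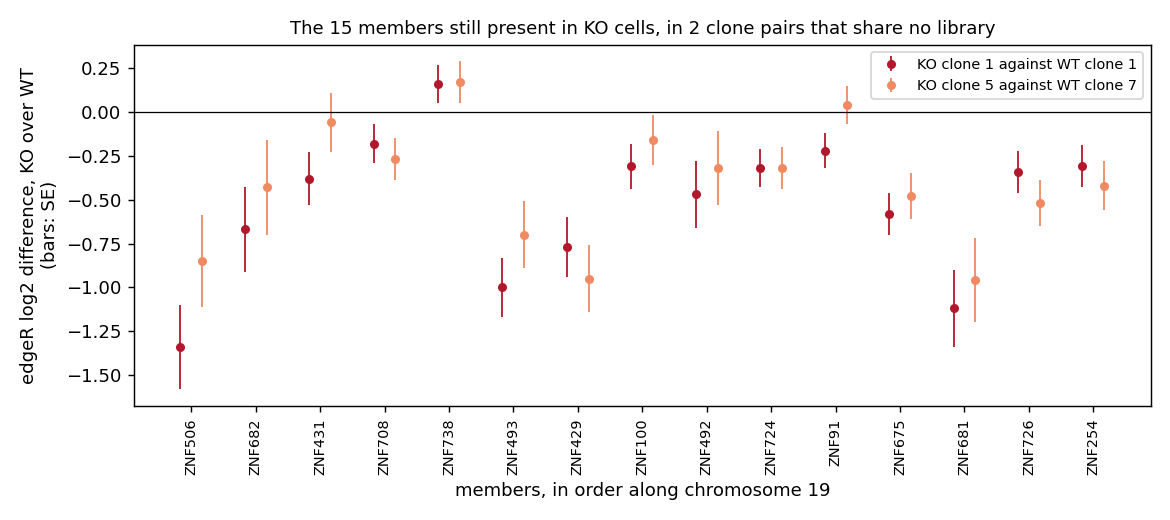
edgeR log2 difference, KO over WT (y axis, bars are SE), of the 15 members present in KO cells, in chromosome order (x axis), for KO clone 1 against WT clone 1 and for KO clone 5 against WT clone 7. Points of both pairs are below 0 for 13 of the 15, from -1.34 to -0.06, with ZNF738 above 0 in both and ZNF91 at -0.22 and 0.04.

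For the genotype contrast the test results are a description, since the members were chosen with them known. By edgeR 15 of the 21 tested members were called lower in KO cells and 0 higher, 9 of them among the 15 present genes, beside 11.9% of all tested genes called lower and 11.3% higher. The median of the tested members was -0.60 on the log2 scale, and that of all tested genes was 0.00. The 2 pairs of clones share no library, and the sample titles do not match a KO clone with a WT clone. In KO clone 1 against WT clone 1, 11 of 21 members were called lower by edgeR, beside 10.5% of all tested genes called lower, 9.01% higher and 19.5% in either direction. It was 9 of the 19 then tested when WT clone 1 replicate 1 was left out, beside 11.7% of all tested genes called lower. In KO clone 5 against WT clone 7, 7 were called lower, beside 8.92% of all tested genes called lower, 8.36% higher and 17.3% in either direction. The 11 genes account for this difference in count: all 6 tested ones were called in the first pair and 1, ZNF730, in the second, where WT clone 7 itself held few counts. By edgeR the KO effect was not called as different between the pairs for any of the 21 members. Of all tested genes 1.75% were called, 0.523% lower and 1.23% higher. None of the 21 had an unadjusted p below 0.05, beside 15.7% of all tested genes. ZNF43, ZNF676 and ZNF729 had 0 counts in both KO clones, so this difference could not be estimated or called for them. Its SE was large for ZNF208 (5.99, SE 3.28) and ZNF90 (2.12, SE 0.98). The count of called members stayed at 0 of 19 by edgeR without WT clone 1 replicate 1, with an unadjusted p below 0.05 at 2. In that fit 1.7% of all tested genes were called lower and 3.37% higher. An unadjusted p below 0.05 was found at 3490 of 17528 genes. ZNF676 was again among the members that could not be called.

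Other zinc finger clusters give the scale of these values. Among 75 tested protein-coding ZNF genes of chromosome 19 from 52 Mb to its end, which cover the cluster at 19q13.4, 20 were called lower in KO cells by edgeR and 2 higher, beside 11.9% and 11.3% of all tested genes, with a median log2 difference of -0.15. Of those with a row, 0 of 79 had 0 counts in all KO libraries. Among 7 such genes on chromosome 7 from 63 to 66 Mb, at 7q11, 4 were called lower and 0 higher, with a median of -0.44. Between the WT clones 0 of the 75 and 0 of the 7 were called by edgeR, beside 0.613% of all tested genes, and 9 and 0 had an unadjusted p below 0.05, beside 16.7% of all tested genes. The differences between clusters were not tested.

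Reads can be shared between such alike genes. Over the longest coding transcript of each member, 20 of 26 shared under 1% of their 100-base stretches with any other ZNF gene or gene of chromosome 19. ZNF43, ZNF257, ZNF66, ZNF737, ZNF730 and ZNF91 shared 0%, ZNF676 0.140% and ZNF729 0.801%. ZNF724 shared 51.5% with the overlapping entry ENSG00000283201, ZNF208 26.0% with ENSG00000279377, ZNF738 24.1% with ENSG00000213976 and ZNF492 17.9%, nearly all of it with ZNF98, so the counts of these 4 are less certain. ZNF486 and ZNF90 overlap an antisense RNA, ENSG00000267383, and whether counting used strand is not given in the sources used here.

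The RNA of the corepressors that KRAB zinc finger proteins use was mostly not called. Of 28 corepressor and heterochromatin genes, all tested, 3 were called lower in KO cells and 2 higher by edgeR, with a median log2 difference of -0.05, beside 23.2% of all tested genes called in either direction. TRIM28, the corepressor itself, was at 693 ± 41.0 CPM in KO and 701 ± 42.5 CPM in WT libraries (-0.02, SE 0.07, edgeR adjusted p = 0.89), and SETDB1 at 52.9 ± 1.2 CPM in KO and 57.5 ± 6.86 CPM in WT libraries (-0.12, SE 0.08, edgeR adjusted p = 0.32). HDAC2, a histone deacetylase, rose to 356 ± 23 CPM in KO libraries, against 177 ± 5.10 CPM in WT libraries (1.01, SE 0.06, edgeR adjusted p = 2.4e-07). The SETDB1 partner ATF7IP fell by 0.64 (SE 0.06, edgeR adjusted p = 9.0e-06), the chromatin remodeller HELLS by 0.59 (SE 0.11, 0.0022) and the maintenance methyltransferase DNMT1 by 0.24 (SE 0.06, 0.0077), and MPHOSPH8, a HUSH complex subunit, rose by 0.23 (SE 0.06, 0.018).

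Repeats of families that proteins of the cluster are known to bind were not called between the genotypes. Of 20 LTR12, SVA and L1PA2 to L1PA8 subfamilies 0 were called in KO against WT by edgeR, 0 had an unadjusted p below 0.05 and DESeq2 called 0, beside 3.61% of all tested repeats called by edgeR, 2.09% lower and 1.52% higher. Some, not all, of these L1PA subfamilies are known targets of ZNF93, which was not analysed here. Summed over the 7 LTR12 subfamilies, KO clone 1 held 183 and 174 CPM and KO clone 5 held 216 and 222 CPM, against 392, 244 and 246 CPM in WT clone 1 and 159 and 167 CPM in WT clone 7. Both KO clones lay above WT clone 7 and below WT clone 1. Summed over the 6 SVA subfamilies, KO clone 1 held 404 and 365 CPM and KO clone 5 held 445 and 470 CPM, against 562, 468 and 441 CPM in WT clone 1 and 348 and 356 CPM in WT clone 7. LTR12 RNA was highest in WT clone 1, which also held the most RNA of ZNF676 and its neighbours, and WT clone 1 replicate 1 led both. Most repeats had this order of libraries. Of all 1111 repeats, 911 were highest in WT clone 1 replicate 1. In 852 both WT clone 7 libraries lay below all WT clone 1 libraries. The relation between ZNF676 and LTR12 RNA was not tested.

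Between the WT clones 3 of the 20 subfamilies were called, all lower in WT clone 7, beside 2.57% of all tested repeats called lower. They were SVA_A (-0.52, SE 0.09, edgeR adjusted p = 0.038), SVA_B (-0.42, SE 0.07, 0.042) and SVA_C (-0.53, SE 0.09, 0.042), while ZNF91, their known repressor, differed by -0.15 (SE 0.10, edgeR adjusted p = 0.41). LTR12C was at -0.94 (SE 0.19, edgeR adjusted p = 0.053). The median was -0.57 over the 20 and -0.51 over all tested repeats. An unadjusted edgeR p below 0.05 was found at 19 of the 20, beside 70.6% of all tested repeats. Without WT clone 1 replicate 1, 15 of the 20 were called lower in WT clone 7 by edgeR, beside 24.2% of all tested repeats, with SVA_A at -0.45, SVA_B at -0.38, SVA_C at -0.47 and LTR12C at -0.65 (edgeR adjusted p = 0.0017). The log2 difference of KO against WT in repeats differed between the clone pairs, which the sample titles do not give. This difference between pairs contains that between the WT clones, with the median of -0.57 over the 20. It also contains that of KO clone 5 against KO clone 1, with a median of 0.32 over the 20. Whether the effect of the knockout itself differed was not tested. In KO clone 1 against WT clone 1, 14 of the 20 were called lower and 0 higher by edgeR, beside 25.7% of all tested repeats called lower, 0.856% higher and 26.5% in either direction. In KO clone 5 against WT clone 7, 6 were called higher and 0 lower, beside 13.6% of all tested repeats called higher, 0.380% lower and 14.0% in either direction. The median log2 difference of the 20 was -0.55 in the first pair and 0.39 in the second. Over all tested repeats the medians were near these, at -0.44 and 0.36. The difference itself passed edgeR at 9 of the 20, beside 10.5% of all tested repeats. Its median was 0.9 over the 20 and 0.81 over all tested repeats. All 20 had an unadjusted edgeR p below 0.05, beside 72.0% of all tested repeats. Without WT clone 1 replicate 1 the clone 1 pair had 15 of the 20 called lower, beside 25.8% of all tested repeats, and the difference passed at 17, beside 44.2% called higher.

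**Figure D4:**
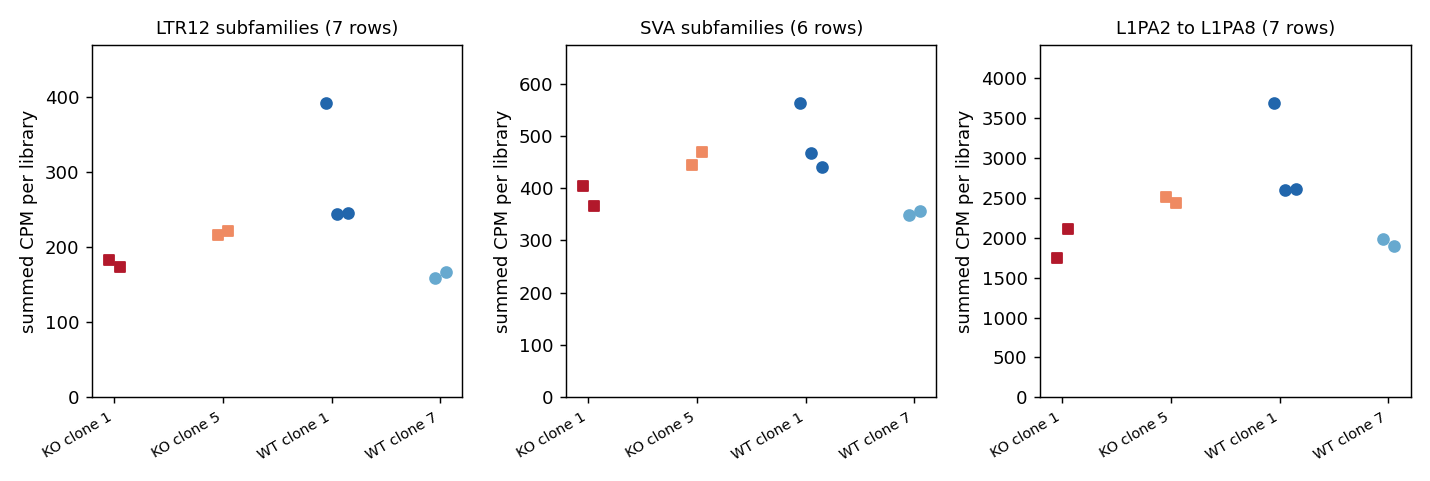
Summed CPM per library (y axes, from 0) of the LTR12, SVA and L1PA2 to L1PA8 subfamilies, with KO clones left of WT clones on the x axes and 1 point for each library. In each panel the highest point is WT clone 1 replicate 1, at 392 CPM for LTR12, 562 CPM for SVA and 3680 CPM for L1PA2 to L1PA8. That library was also the highest at 911 of all 1111 repeats.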

How the data were processed

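RNA-seq of 9 libraries was used. Per the labels' protocols, ribosomal RNA was depleted, libraries were directional with UMI adaptors, and reads were paired. The submitters' processing notes name STAR 2.5.2a, DESeq2 1.22.2 and the hg38 build. The deposited table holds raw counts per gene and repeat subfamily, 21003 genes and 1111 repeats; the sources used here give neither its annotation nor how strand and UMIs were treated. The authors' normalised counts and comparison were not used.

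Counts were scaled by TMM, and low rows were dropped by filterByExpr (genotype groups, minimum count 10), leaving 17777 genes and 1052 repeats. edgeR 4.0.16 (R 4.3.3) quasi-likelihood tests gave KO against WT from a genotype term and all clone contrasts from a fit with 4 groups. Benjamini-Hochberg adjustment ran over the 18829 tested rows, with calls at 0.05. CPM used the TMM-scaled library size, ± is SD, and SE is that of the edgeR log2 difference. DESeq2 1.42.0 was an alternative. The tests were run on simulated counts with the same spread for all genes and with libraries drawn independently. Changed genes there were well above 0 counts. That check does not cover genes near 0 counts, or KO against WT where clones of a genotype differ. Same-numbered libraries deviated together from their clone means in every pair (correlation 0.101 to 0.507), so replicate number was used as a block in an alternative. Positions and transcripts came from GENCODE release 44, which held 20689 of the gene rows, and promoters from RefSeq.

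The difference between the clone pairs, and the clone contrasts of members and repeats without WT clone 1 replicate 1, were added after seeing the data. The members, the lists and the rule for named genes were chosen with earlier results of these data known. Named members were the 8 of highest mean CPM, those with 0 counts in all KO libraries, the 5 largest differences each way, those called between clones, and ZNF91, ZNF93, ZNF85, ZNF43, ZNF208 and ZNF676.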

Additional observations from a re-analysis of the deposited data

Results flagged for a closer look

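Among 52 groups (26 members, KO and WT libraries apart), 12 held a library whose gap to the next, divided by the range of the group, was above Dixon's critical value for its size. Chance flags about 1 in 20 groups, and members of 1 library are not independent. In 9 of the 12 it was WT clone 1 replicate 1, high among WT libraries: ZNF506 (13.0 CPM), ZNF253 (5.00 CPM), ZNF486 (4.19 CPM), ZNF431 (30.7 CPM), ZNF493 (16 CPM), ZNF100 (28.4 CPM), ZNF43 (18.1 CPM), ZNF208 (25.0 CPM) and ZNF676 (22.0 CPM). The others were KO libraries: KO clone 5 replicate 1 was high for ZNF66 (0.0474 CPM, 1 count) and ZNF208 (0.190 CPM), and KO clone 1 replicate 1 was low for ZNF492 (6.27 CPM).

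The log2 difference of KO against WT differed between the clone pairs by edgeR's contrast at 9 repeat subfamilies. The sample titles do not give these pairs. The log2 difference of KO clone 5 against WT clone 7 minus that of KO clone 1 against WT clone 1 was 0.99 for LTR12, 1.42 for LTR12_, 0.83 for SVA_A, 0.63 for SVA_B, 0.88 for SVA_C, 0.77 for SVA_D, 0.99 for L1PA2, 1.00 for L1PA5 and 1.02 for L1PA7. In each the WT clone 1 libraries were above those of WT clone 7. All 9 passed again without WT clone 1 replicate 1, at 0.81 for LTR12, 1.15 for LTR12_, 0.76 for SVA_A, 0.59 for SVA_B, 0.81 for SVA_C, 0.66 for SVA_D, 0.80 for L1PA2, 0.81 for L1PA5 and 0.84 for L1PA7.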

How the results depend on the processing

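The KO result was counted as 15 members called lower. It was 8 without KO clone 1, 7 without KO clone 5 and 6 with the libraries of each clone summed, which leave fewer samples, and 13 to 18 with 1 library left out. The median of -0.60 was -0.97 with no filter, -1.06 without KO clone 1, -0.99 without KO clone 5, -0.43 without WT clone 1, -0.98 without WT clone 7 and -0.95 to -0.43 with 1 library left out. These settings change how many members are tested. Between the WT clones the count of 1 became 4 with DESeq2, 5 with the replicate block, 0 with robust dispersion and 0 with the 2 clones fitted alone. It was 3 without WT clone 1 replicate 1 or replicate 2, and 0 without WT clone 1 replicate 3, either WT clone 7 library or any of the 4 KO libraries, and the cause was not tested. Without WT clone 1 replicate 1, 2.8% of all tested genes were called lower in WT clone 7, against 0.45% in the main fit. A WT clone 7 left with 1 library is assumed to vary like the other groups. The count between KO clones was 0 in all 18 alternatives. Genes with 0 counts in all KO libraries could not be called between the KO clones. Of the 20 repeat subfamilies 4 were called higher without WT clone 1 and 3 lower without WT clone 7. The corepressor list had 5 calls, 2 without KO clone 1 and 3 with clones summed. For named members between the WT clones, 193 of 223 values kept direction and side of the threshold, 9 lost a call, 11 gained one and 10 uncalled values near 0 changed sign: ZNF738 (0.02) at -0.05 with the replicate block and -0.00 with the 2 clones alone, ZNF726 (0.01) at -0.01 with genes only and with the 2 clones alone and -0.00 with the strict filter, and, with 1 library left out, ZNF738 at -0.05 to 0.07, ZNF726 at -0.13 to 0.12 and ZNF724 (0.07) at -0.03 to 0.16. For KO against WT, where calls were not compared, 228 of 230 log2 differences and 36 of 36 lower bounds moved by less than the spread between libraries. The replicate block changed no other count by over 1.5 times. Genes with a few counts in WT clone 7 limit what can be said of KO clone 5 against WT clone 7.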
